A study of Mus musculus with 18 samples.

Results

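The cerebral cortex of mice without the taste receptor subunit T1R3 was compared with that of wild-type mice on Illumina bead arrays. The comparison holds 3 knockout (T1R3KO) and 3 wild-type (WT) cortex arrays of the 18 arrays in the series, chosen by their titles, and the other 12 arrays hold hippocampus and hypothalamus of the same genotypes, 3 each. The animals were male, 4 to 5 months old and on the C57BL/6J background, and the study's text gives 18 animals for the 18 arrays. Crossing to C57BL/6J had gone on for 4 generations or more in the knockout line. No treatment is given for any group. Of the 25697 probes on the array, 13840 were tested, those detected above the negative control beads (p under 0.05) on 3 or more of the 6 cortex arrays, and they cover 9554 named genes. The p-values rest on the spread between arrays within groups, pooled over all 18 arrays, and so mostly on arrays of the other regions. That pooled spread is smaller than the spread within knockout cortex, given below. Replicate numbers recur across regions. Over all tested probes, the deviations of a cortex array and of the arrays of its number and genotype in the other regions correlated at -0.16 to 0.32 in knockout and -0.08 to 0.15 in wild type.

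T1R3, encoded by Tas1r3, is a receptor of the G protein-coupled class C family. It pairs with T1R1 to sense amino acids and with T1R2 to sense sugars and sweeteners, and both pairs signal in taste cells through phospholipase C and the channel TRPM5. The subunit is also known from cells outside the tongue, among them gut and pancreatic endocrine cells and parts of the brain. The cortex is a layered sheet of glutamatergic projection neurons and GABAergic interneurons, with astrocytes, oligodendrocytes, microglia and vessels, and it borders the striatum, the choroid plexus and the meninges.

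The target gene gave no check of the genotype. The Tas1r3 probe had signals of 131.5, 123.2 and 112.3 intensity units on the knockout arrays, against 112.3, 151.9 and 130.3 on the wild-type arrays. It was detected on 1 of the 6, wild-type array 2. Tas1r1 and Tas1r2, the partner subunits, were detected on 0 of 6. Mean signal per cortex array lay between 907.3 and 1109 intensity units, and 52.1% to 54% of probes passed detection. The knockout arrays of cortex were the least alike of the 6 groups: their root mean variance was 0.278 on the log2 scale, against 0.166 in wild-type cortex and 0.167 to 0.211 in the other 4 groups. Correlations between arrays were 0.979 to 0.985 within knockout cortex and 0.992 to 0.995 within wild-type cortex.

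Markers of neighbouring tissue were uneven among the 6 arrays. The mean of 18 measured striatum markers, of 26 in the list, stood at 1.19, -0.49 and 0.57 (log2, relative to the wild-type mean) on knockout arrays 1, 2 and 3, against -0.33, 0.47 and -0.14 on wild-type arrays 1, 2 and 3. The 15 measured markers of hypothalamus and basal forebrain, of 29, gave 1.17, -0.04 and 0.65 on the knockout arrays, against -0.31, 0.56 and -0.25 on the wild-type arrays. A further 12 of the 29 were on the array but not tested, and 9 of them, among them the neuropeptide genes Hcrt, Avp and Pomc, were detected on 0 of the 6 arrays. Of the other 3, Pmch, another hypothalamic neuropeptide gene, passed detection on 2 arrays, both knockout, and Gal and Dlk1 on 1 knockout and 1 wild-type array each. Knockout arrays 1 and 3 and wild-type array 2 therefore carried more of these markers than the other 3, and their part in the results below was tested by leaving those 3 arrays out. Cortical markers were present in both genotypes: Lmo4, a transcription cofactor of projection neurons, averaged 14.18 ± 0.09 on the log2 scale in knockout and 14.36 ± 0.06 in wild-type cortex (SD, n = 3 each). The mean of the 21 measured projection neuron markers, of 32, lay between -0.11 and 0.04 on the knockout arrays, against -0.01 and 0.01 on the wild-type arrays.

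**Figure D1:**
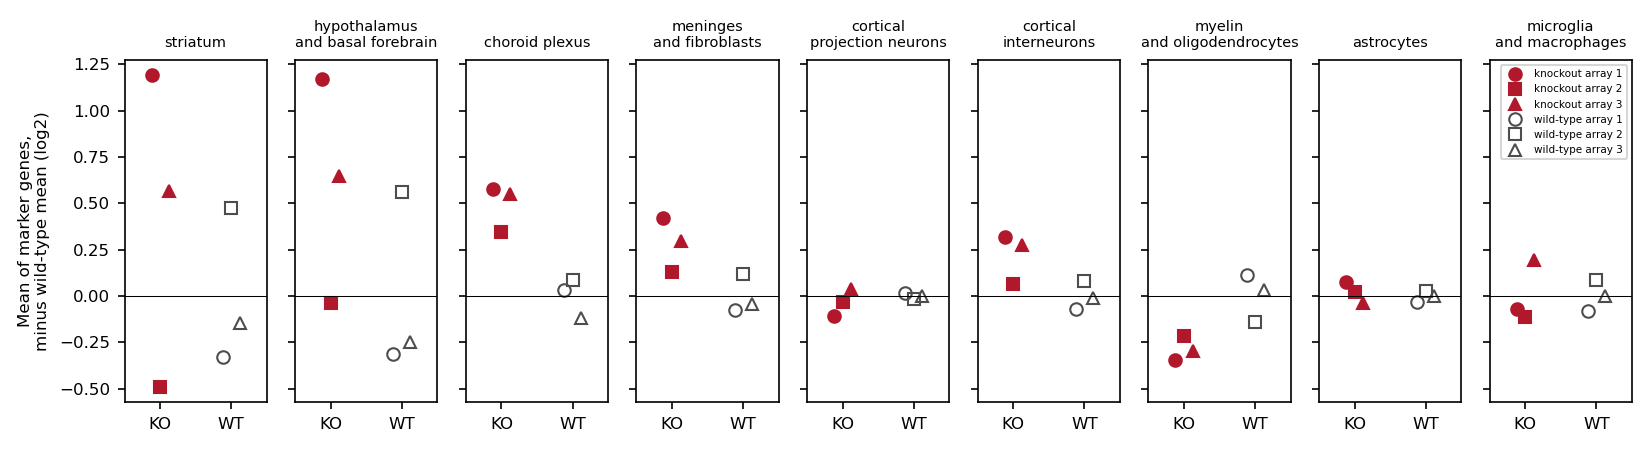
Mean normalized level (log2) of the measured marker genes of 9 cell types or tissues, relative to the wild-type mean, with 1 point for each cortex array (red, knockout; open grey, wild type). Striatum markers stood at 1.19, -0.49 and 0.57 on the knockout arrays, while projection neuron markers stayed between -0.11 and 0.04.

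In cortex, 429 probes passed an adjusted p of 0.05 in limma (3.1% of those tested), and these are called here. Of these, 179 were higher in knockout (1.29% of those tested) and 250 lower (1.81%). They named 362 genes, 154 higher and 209 lower, with Snapc3 in both counts, and 40 called probes had no gene symbol. The arrays of the genotypes did not overlap for 416 of the 429, where this held for 17.2% of all tested probes. The log2 difference exceeded 1 in size for 102 called probes, 39 higher and 63 lower, and was under 0.5 in size for 91. Calls stretched from probes at the background to some of the brightest, as the plot of difference against level shows.

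The count depended on what entered the fit. With only the 6 cortex arrays, 62 probes were called (0.448% of those tested), 59 of them also called over 18 arrays, where the other groups supply most of the estimate of spread. Leaving out knockout array 1 gave 681 calls, and leaving out knockout array 3, wild-type array 1 or wild-type array 3 gave 197, 178 and 163. Without the 3 arrays rich in striatal and hypothalamic markers 288 were called. All 429 kept their sign in that fit, an outcome fixed in advance for the 416 whose genotypes did not overlap. The core of calls that held in each fit without 1 cortex array was 134 probes of 113 genes, 53 higher and 81 lower.

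**Figure D2:**
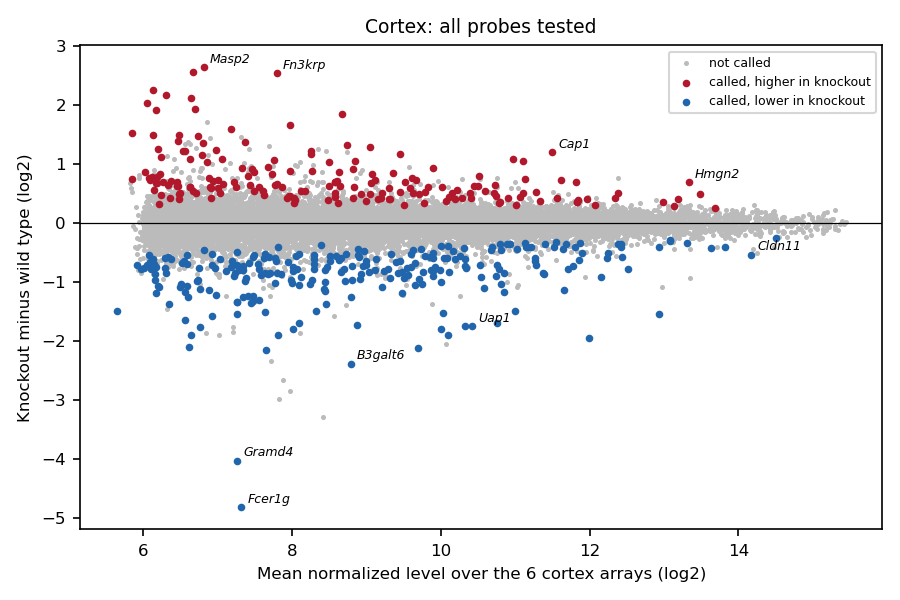
Difference between knockout and wild-type cortex (log2) against the mean normalized level over the 6 cortex arrays (log2), 1 point for each of 13840 probes. Red points are the 179 probes called higher in knockout and blue points the 250 called lower; Fcer1g and Gramd4 lie lowest.

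Fcer1g and Gramd4 were lost to the background in knockout cortex. Fcer1g, the gamma chain through which activating Fc receptors signal in microglia and macrophages, stood at 4.92, 4.91 and 4.91 on the log2 scale on the knockout arrays, against 9.81, 9.66 and 9.70 on the wild-type arrays. No knockout array detected it, so it passed the filter only through the 3 wild-type arrays. It was at least 11.8-fold lower in knockout (adjusted p = 2.70e-12). Such a bound sets the brighter group's mean against, for each array of the dimmer group, the level of this probe or of the dimmest detected probe, whichever is larger. The brightest microglia markers gave small differences that did not pass: Laptm5 differed by -0.06 ± 0.15 (log2, SE), C1qb by -0.01 ± 0.13 and Cx3cr1 by -0.01 ± 0.12, with adjusted p of 0.893, 0.982 and 0.970. The 21 measured microglia and macrophage markers, of 26, had a median difference of -0.01, and their mean lay between -0.11 and 0.19 on the knockout arrays, against -0.08 and 0.09 on the wild-type arrays. In bulk tissue, fewer cells of a type and less RNA per cell cannot be told apart. Gramd4, a GRAM domain protein, stood at 5.14, 5.48 and 5.13 on the knockout arrays, against 9.02, 9.32 and 9.46 on the wild-type arrays, at least 8.64-fold lower (adjusted p = 7.83e-11).

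Further large falls were those of B3galt6, Uap1, Clstn1 and Slc24a2. B3galt6, which adds a galactose to the linker of proteoglycan chains, stood at 7.37, 7.72 and 7.71 in knockout, against 9.85, 10.15 and 9.93 in wild type, and fell by 2.38 ± 0.15 (log2, SE). Uap1, which makes the sugar donor UDP-N-acetylglucosamine, stood at 9.09, 9.88 and 9.67 in knockout, against 11.35, 11.23 and 11.28 in wild type, and fell by 1.74 ± 0.15. Clstn1, the synaptic membrane protein calsyntenin 1, stood at 9.57, 10.05 and 10.13 in knockout, against 11.70, 11.49 and 11.64 in wild type, and fell by 1.69 ± 0.12. The arrays of the genotypes lay far apart for all 3, with gaps wider than the range within either group. Slc24a2, a potassium-dependent sodium and calcium exchanger of neurons, stood at 6.16, 5.37 and 5.16 in knockout, against 7.55, 7.47 and 7.95 in wild type, and was detected on 1 knockout array (adjusted p = 3.07e-04). Eya3, a transcriptional coactivator with phosphatase activity, was at least 2.34-fold lower and Zbtb8os, a subunit of the tRNA ligase complex, at least 2.70-fold lower, each at a probe below detection on all 3 knockout arrays. A second Eya3 probe, of higher level, differed by 0.07, so the fall of Eya3 rests on 1 of 2 probes.

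Among the 15 genes of largest fall, 8 were called with only the 6 cortex arrays: Fcer1g, Gramd4, B3galt6, Slc24a2, Zbtb8os, Uap1, Clstn1 and Eya3. Leaving out 1 array ended the call for 6 of the other 7, which were Kitl, Ccng2, Trim33, Kcna1, Atp2b2 and Zfp365. Il22ra1, a subunit of the interleukin 22 receptor, was the seventh, with a fall of 1.58 ± 0.28 (adjusted p = 0.00463). Ccng2, a cyclin linked to cell cycle arrest, stood at 8.36, 8.84 and 10.29 in knockout, against 10.87, 11.16 and 11.10 in wild type. Zfp365 stood at 11.61, 12.08 and 12.81 in knockout, against 13.71, 13.70 and 13.70 in wild type. Knockout array 3 was the highest knockout array for Zfp365 in the other regions too, where the knockout arrays stood at 11.19, 11.13 and 12.46 in hippocampus and 9.77, 10.02 and 11.28 in hypothalamus. Both genes were widely spread among the knockout arrays of cortex, and below wild type on each, as the choice of leading genes required. Without the 3 marker-rich arrays their differences were -2.15 and -1.62. In addition, 5 unnamed probes had falls of the same size, among them ILMN_3023451, which stood at 6.59, 7.19 and 6.83 in knockout and averaged 8.76 ± 0.03 (SD, n = 3) in wild type.

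**Figure D3:**
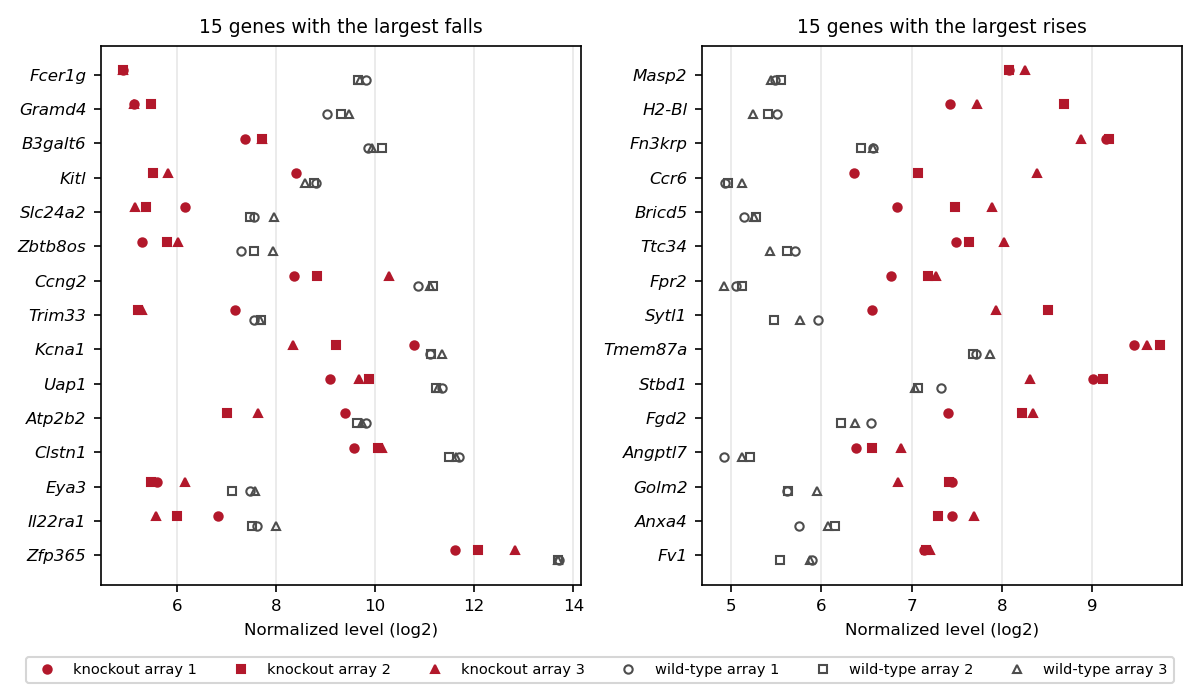
Normalized level (log2) on each of the 6 cortex arrays for the 15 genes with the largest falls (left) and the 15 with the largest rises (right); red symbols above are knockout arrays and open grey symbols below are wild-type arrays. Fcer1g stood at 4.92, 4.91 and 4.91 in knockout and at 9.81, 9.66 and 9.70 in wild type, while Kitl on knockout array 1, at 8.41, lay next to the wild-type arrays.

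Masp2, a serine protease of the complement lectin pathway, showed the largest rise. It stood at 8.08, 8.07 and 8.26 on the knockout arrays, against 5.49, 5.56 and 5.44 on the wild-type arrays, where it was detected on 0 of 3, and was at least 4.14-fold higher in knockout (adjusted p = 2.29e-10). Its other probe was called as well, at least 1.29-fold higher. H2-Bl, an MHC class I gene, stood at 7.43, 8.69 and 7.72 in knockout, against 5.51, 5.41 and 5.24 in wild type, at least 3.63-fold higher. Fn3krp, which phosphorylates glycated proteins, stood at 9.15, 9.18 and 8.87 in knockout, against 6.57, 6.43 and 6.57 in wild type, and rose by 2.54 ± 0.17. Tmem87a, a Golgi membrane protein, stood at 9.46, 9.75 and 9.60 in knockout, against 7.71, 7.67 and 7.87 in wild type, and rose by 1.85 ± 0.14. For each of these genes the lowest knockout array was above the highest wild-type array, as the choice of leading genes required.

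Several rises were at probes that were not above background in wild-type cortex. Ttc34 was at least 3.09-fold higher, Sytl1, an effector of the small GTPase RAB27, at least 2.99-fold, Bricd5 at least 2.49-fold and Ccr6, a chemokine receptor, at least 2.27-fold. Golm2 was at least 2.21-fold higher, Fv1, a restriction factor against retroviruses, at least 2.11-fold, Fpr2, which senses formyl peptides on neutrophils and macrophages, at least 1.98-fold and Angptl7, a secreted angiopoietin-like protein, at least 1.44-fold. These 8 probes were detected on 0 wild-type arrays, so they passed the filter only through detection on all 3 knockout arrays. Golm2 and Ccr6 differed less at a brighter probe: that of Golm2, detected on all 6 arrays, averaged 10.58 in knockout and 10.20 in wild type, a difference of 0.39 (adjusted p = 0.145), and that of Ccr6, detected on 1 of 3 wild-type arrays, averaged 6.68 in knockout and 6.04 in wild type, a difference of 0.64 (adjusted p = 0.127). Sytl1 was uneven, at 6.57, 8.51 and 7.93 in knockout against 5.97, 5.47 and 5.76 in wild type, and so was Ccr6, at 6.36, 7.07 and 8.38 in knockout against 4.94, 4.97 and 5.12 in wild type. Fgd2, an activator of the GTPase CDC42, rose by 1.61 ± 0.22, Stbd1, which binds glycogen, by 1.66 ± 0.20 and Anxa4, a calcium-dependent membrane-binding protein, by 1.48 ± 0.19. All 15 leading rises stayed called in each of the 6 fits that left out 1 cortex array, and 12 were called with only the cortex arrays, the exceptions being Ccr6, Sytl1 and Fgd2.

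The leading genes were spread unevenly over the chromosomes. Chromosome 4, which carries Tas1r3, held 6 of the 15 leading falls and 5 of the 15 leading rises, and chromosome 17 held 5 of the leading rises. With 1 probe for each gene, 64 of 584 tested genes of chromosome 4 were called (11%), 28 of 465 on chromosome 17 (6.02%) and 23 of 493 on chromosome 1 (4.67%), against 280 of 9550 over all chromosomes (2.93%). Along chromosome 4 in RefSeq order, 7, 12, 23 and 22 of 146 genes were called in 4 successive runs of equal gene number, the last of which contains Tas1r3. On chromosome 1, 14 of 29 consecutive tested genes from Rgs5 to Pex19 were called, and that stretch includes Uap1, Hsd17b7, Fcgr2b, Fcgr3, Sdhc and Fcer1g. The stretch was drawn around these called genes, with called genes at both ends, so its count is not independent of that choice. The first listed member of the stretch, Rgs5, a regulator of G protein signalling in pericytes, rose by 1.17 ± 0.16.

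A separate set of genes was low on knockout arrays 2 and 3 and much nearer to wild type on array 1. Kitl, the ligand of the KIT receptor, stood at 8.41, 5.51 and 5.81 in knockout, against 8.81, 8.77 and 8.58 in wild type. Kcna1, the voltage-gated potassium channel Kv1.1 of axons, stood at 10.79, 9.22 and 8.34 in knockout, against 11.10, 11.12 and 11.35 in wild type. Scn1a, the sodium channel Nav1.1 of fast-spiking interneurons, stood at 11.77, 10.68 and 10.83 in knockout, against 12.33, 12.09 and 12.25 in wild type. On every knockout array these genes were below wild type, as the choice of leading genes required for Kitl and Kcna1. Array 1 carried the smallest part of the fall. Atp2b2, a calcium pump of the plasma membrane, stood at 9.39, 7.02 and 7.63 in knockout, against 9.82, 9.64 and 9.74 in wild type. Trim33, a ubiquitin ligase of TGF-beta signalling, stood at 7.17, 5.21 and 5.30 in knockout, against 7.56, 7.70 and 7.68 in wild type.

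The knockout differences of these genes were near 0 in the other regions. For Kitl they were 0.05 in hippocampus and -0.07 in hypothalamus (log2), for Kcna1 -0.03 and -0.15, for Scn1a 0.01 and -0.18, and for Trim33 0.10 and -0.23. Over the 429 called probes, knockout array 1 showed less than 0.5 of the mean deviation of the other 2 knockout arrays for 97 (22.6%), 79 of them lower in knockout, where array 2 did so for 31 and array 3 for 11. Those 79 had a median difference of -0.86 in cortex, -0.03 in hippocampus and -0.07 in hypothalamus. Of the 97 probes, 14 were called in another region. Striatal and hypothalamic markers were highest on that same array 1. They were next highest on knockout array 3, where Kitl, Kcna1, Scn1a, Atp2b2 and Trim33 were low. Whether the mix of tissue had a part in this pattern was not tested. Some of these genes rest on 1 of several probes: 1 of 4 was called for Trim33 and 1 of 3 for Atp2b2, whose brightest probe differed by -0.25, while both probes were called for Zfp106, an RNA-binding zinc finger protein, and for Abcd2.

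**Figure D4:**
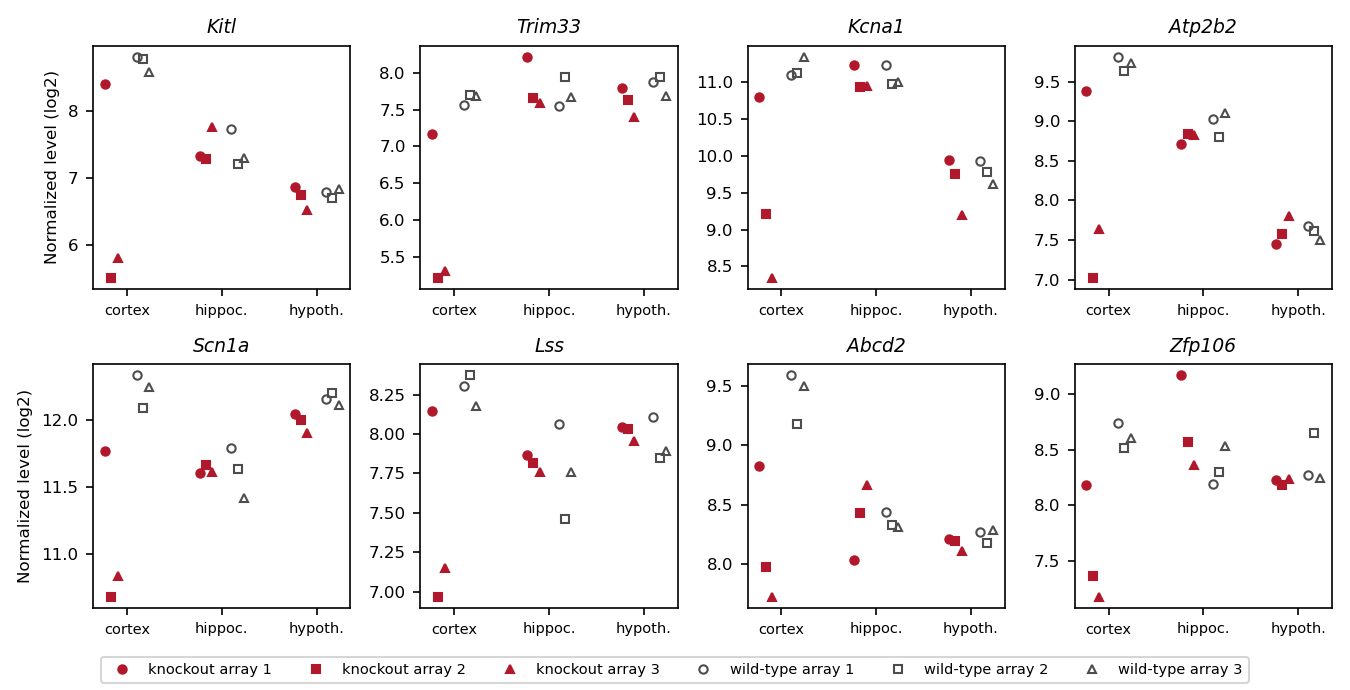
Normalized level (log2) of 8 genes on each of the 18 arrays, by region, with knockout arrays in red to the left and wild-type arrays in open grey to the right. In cortex, knockout array 1 (circle) lies well above knockout arrays 2 and 3 for Kitl (8.41 against 5.51 and 5.81), and in hippocampus and hypothalamus the genotypes overlap for Kitl.

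Cortex shared much of its difference with the other regions. Of the 429 called probes, 317 (73.9%) had the same sign in hippocampus and hypothalamus, where 38.6% of all tested probes did, and 98 were called in all 3 regions. Another 51 were called in 1 other region and 280 in neither. Of the 15 leading rises, 12 were called in both other regions and 0 in neither. Of the 15 leading falls, 7 were called in both and 6 in neither. Fcer1g differed by -4.61 in hippocampus and -4.32 in hypothalamus (log2), and Gramd4 by -3.97 and -4.31. Whether the knockout effect in cortex differed from the mean effect in the other regions was tested directly in the same fit, and 1 probe passed (0.00723% of those tested), with 992 at an unadjusted p under 0.05. That probe was of Padi6, a peptidylarginine deiminase known from oocytes. In cortex Padi6 stood at 4.96, 4.92 and 4.85 in knockout, against 6.41, 6.26 and 6.49 in wild type, and was at least 1.17-fold lower. It passed the filter through the wild-type cortex arrays alone and was detected on 0 of the 12 arrays of hippocampus and hypothalamus, so no effect could be measured there and this call shows no difference in effect between regions. Next came Marcksl1, a MARCKS-like actin regulator, with a rise of 0.76 ± 0.12 in cortex, and Col9a2, a collagen chain, with a rise of 1.05 ± 0.11, and neither passed (adjusted p of the difference between regions 0.252 for both).

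This test depended on single arrays. Without knockout array 1 it gave 183 probes, 149 with a lower effect in cortex than in the other regions, and without wild-type array 2 it gave 22. With all arrays Kitl did not pass (adjusted p = 0.333), nor did Atp2b2, Trim33, Kcna1 or Scn1a. These genes were described because knockout array 1 stood apart, so no test without that array is given for them.

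Genes were also grouped by function, with 1 probe for each gene, that of highest level. Dimmer probes alone were called lower for Ank2, Mef2c, Prkaa2, Ifit3, Rpl29, Mal, Mobp, B2m and Atp2b2, and higher for Scp2 and Nnat. The counts of called members leave these out. The lists were drawn up with earlier results of these data known. Over all 9554 genes, 129 were called higher (1.35%) and 152 lower (1.59%), 54.6% had a positive difference, and the median difference was 0.02 on the log2 scale. Of 47 called members named from these groups, 21 stayed called in each fit without 1 cortex array, 14 with only the cortex arrays, and 26 without the 3 marker-rich arrays.

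Ion channel and ion transport genes gave more calls lower than higher, as did all genes (152 against 129). The share called was 7.89% of the potassium channel list and 15.4% of the calcium, sodium and HCN list, against 2.94% of all genes. Of 38 potassium channel genes, 3 fell and 0 rose, with a median of -0.04. Besides Kcna1 these were Kcnq5, an M-current subunit, at 7.13, 7.20 and 7.28 in knockout against 7.90, 7.80 and 7.97 in wild type (-0.69 ± 0.15, adjusted p = 0.0203), and Kcnip4, an accessory subunit of Kv4 channels, with -0.54 ± 0.11. Of 26 genes of calcium, sodium and HCN channels, a list that also holds exchangers and calcium pumps, 3 fell and 1 rose, with a median of -0.01. The exchanger Slc24a2 and the channel Scn1a were 2 of the falls, and Cacnb4, a calcium channel beta subunit, fell by 0.40 ± 0.09 at 1 of its 2 tested probes. Cacna1h, a T-type calcium channel, stood at 11.17, 10.49 and 10.95 in knockout, against 10.27, 10.51 and 10.21 in wild type, and rose by 0.54 ± 0.14, with knockout array 2 inside the wild-type range. Kcna1, Kcnip4, Kcnq5, Cacnb4 and Cacna1h each lost the call when 1 array was left out.

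Synaptic genes were called at 4.76% of the presynaptic, 6.45% of the postsynaptic and 6.25% of the glutamate receptor list, against 2.94% of all genes, with 1 or 2 genes in each. Of 42 presynaptic genes, Clstn1 fell and Syngr3, a synaptic vesicle membrane protein, rose, at 13.39, 13.41 and 13.37 in knockout against 12.94, 13.11 and 12.91 in wild type (0.41 ± 0.07). Of 31 postsynaptic scaffold and kinase genes, Camk2d, a calcium and calmodulin-dependent kinase, rose by 0.92 ± 0.20 and Dlg1, a scaffold protein, was at least 1.40-fold lower. Of 16 glutamate receptor genes, Gria3, an AMPA receptor subunit, fell by 0.57 ± 0.15 at 1 of 3 probes. Camk2d, Dlg1 and Gria3 each lost the call when 1 array was left out. The limma fit called 0 of 14 GABA genes, 0 of 22 monoamine and acetylcholine receptor genes and 0 of 31 neurotrophin, ERK and CREB genes. At an unadjusted p under 0.05 there were 2, 4 and 3 of them, where 16.1% of all probes lay, and without knockout array 1 limma called 1 in each group. Rorb, a nuclear receptor of layer 4 neurons, was the 1 of 21 projection neuron markers called at its brightest probe. It stood at 8.36, 8.56 and 8.43 in knockout, against 9.27, 9.07 and 9.19 in wild type, and fell by 0.73 ± 0.13, with both of its probes called. Dlx2, a transcription factor of interneurons, was the 1 called of 17 interneuron markers (0.54 ± 0.12), and lost the call when 1 array was left out, while Sst and Gad1 differed by 0.08 ± 0.08 and 0.09 ± 0.11.

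Myelin genes were lower in knockout cortex at part of the list. Of 20 measured, 3 fell and 0 rose (15%, against 2.94% of all genes called), and 16 had a negative difference, with a median of -0.26. Mog, a surface protein of myelin, stood at 10.14, 10.08 and 9.67 in knockout, against 10.99, 10.40 and 10.78 in wild type, and fell by 0.76 ± 0.16 with both probes called. Tspan2, a tetraspanin of oligodendrocytes, fell by 0.59 ± 0.13 and Cldn11, the claudin of myelin tight junctions, by 0.53 ± 0.13. Mbp, which encodes the myelin basic protein, was the brightest of the list and stood at 15.12, 15.33 and 15.23 in knockout, against 15.29, 15.27 and 15.11 in wild type, a difference of 0.00 ± 0.07. The mean of the list was -0.34, -0.21 and -0.30 on knockout arrays 1, 2 and 3, against 0.11, -0.14 and 0.03 on the wild-type arrays. Striatal markers were highest on knockout array 1 and lowest on knockout array 2. The list's median was -0.20 without the 3 marker-rich arrays and -0.19 without knockout array 1. Whether the mix of tissue had a part in the fall was not tested. Mog, Tspan2 and Cldn11 each lost the call when 1 array was left out. The list's median was -0.14 in hippocampus and -0.18 in hypothalamus. Gpr17, a receptor of maturing oligodendrocyte precursors, fell by 0.52 ± 0.11, the 1 called of 9 precursor markers. Bcas1, a protein of myelinating cells, fell by 0.42 ± 0.10. Both lost the call when 1 array was left out.

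Of 25 genes of cholesterol synthesis and transport, 3 fell and 0 rose (12%, against 2.94% of all genes called), with a median of -0.01. All 3 are enzymes of the later part of sterol synthesis. Lss, lanosterol synthase, stood at 8.14, 6.97 and 7.15 in knockout, against 8.30, 8.37 and 8.18 in wild type, and fell by 0.86 ± 0.22. Hsd17b7, a sterol ketone reductase, stood at 10.96, 11.06 and 10.89 in knockout, against 11.33, 11.41 and 11.37 in wild type, and fell by 0.39 ± 0.08. Cyp51, the lanosterol demethylase, stood at 9.91, 9.90 and 9.62 in knockout, against 10.15, 10.20 and 10.23 in wild type, and fell by 0.38 ± 0.10. No knockout array reached the wild-type range for any of the 3, but Lss on knockout array 1, at 8.14, lay just below the lowest wild-type array, at 8.18. Hsd17b7 lies in the chromosome 1 stretch described above. Each of these 3 genes of sterol synthesis lost the call when 1 array was left out. Srebf2, the transcription factor that drives this pathway, differed by 0.10 (adjusted p = 0.841), Hmgcs1 by 0.05 and Sqle by -0.03.

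The promoters of these 3 genes are shown because all 3 were called lower. Each run holds 250 bases before and 50 after the start in RefSeq's GRCm38.p6, on the gene's own strand: chr1:169969156-169969455 (minus strand) for Hsd17b7, chr10:76531355-76531654 (plus strand) for Lss and chr5:4104648-4104947 (minus strand) for Cyp51. Capitals mark CCAAT on either strand, so that a site on the opposite strand reads ATTGG; this is the box bound by NF-Y, a cofactor of sterol-responsive promoters.
Hsd17b7: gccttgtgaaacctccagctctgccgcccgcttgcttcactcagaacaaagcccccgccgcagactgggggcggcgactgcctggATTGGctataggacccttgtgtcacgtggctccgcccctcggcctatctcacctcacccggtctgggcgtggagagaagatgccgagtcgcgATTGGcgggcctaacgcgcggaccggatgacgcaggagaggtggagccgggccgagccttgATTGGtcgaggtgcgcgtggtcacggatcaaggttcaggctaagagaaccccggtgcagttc
Lss: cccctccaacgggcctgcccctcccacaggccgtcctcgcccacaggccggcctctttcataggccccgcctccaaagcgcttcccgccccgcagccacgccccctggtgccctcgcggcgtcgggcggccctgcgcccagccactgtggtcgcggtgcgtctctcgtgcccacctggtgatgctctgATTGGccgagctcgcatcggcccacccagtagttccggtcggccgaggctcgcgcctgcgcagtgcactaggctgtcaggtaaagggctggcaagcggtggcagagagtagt
Cyp51: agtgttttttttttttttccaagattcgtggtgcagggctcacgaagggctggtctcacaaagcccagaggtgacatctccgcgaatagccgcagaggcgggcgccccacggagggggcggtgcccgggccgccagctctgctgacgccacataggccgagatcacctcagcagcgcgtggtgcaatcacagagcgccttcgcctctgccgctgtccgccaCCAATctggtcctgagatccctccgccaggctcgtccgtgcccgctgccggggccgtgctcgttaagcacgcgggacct
The box occurred 3 times for Hsd17b7, 1 time for Lss and 1 time for Cyp51, and 37.9% of 27025 promoters of the same length hold it, or 38.7% of those of tested genes. TCACNCCAC, a sterol response element, was searched on both strands and matched in 0 of the 3, where 1.22% of all promoters and 1.04% of those of tested genes hold it. Of other promoters, that of Fcer1g had no match to GAGGAA, the core bound by PU.1 (28.3% of all promoters, 26.4% of those of tested genes), and those of Mog, Tspan2 and Cldn11 none to ACAAAG or ACAATG, cores bound by SOX factors (28.8% of all promoters, 19.2% of those of tested genes).

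Peroxisomal genes gave 3 falls and 1 rise among 23 measured (17.4%, against 2.94% of all genes called), with a median of -0.07. Abcd2, which imports very long chain fatty acids, stood at 8.82, 7.98 and 7.72 in knockout, against 9.59, 9.18 and 9.50 in wild type, and fell by 1.25 ± 0.21, and its difference in hippocampus was 0.02. Pex19, needed to insert peroxisomal membrane proteins, fell by 0.40 ± 0.07 at its brighter probe and by 0.94 ± 0.14 at the other. Abcd3 fell by 0.41 ± 0.09, while Pex6, an ATPase of matrix protein import, rose by 0.41 ± 0.10. Both of those calls were lost when 1 array was left out.

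Mitochondrial genes shifted by little. Of 33 complex I subunits, 30 had a positive difference and 1 was called, with a median of 0.10, and of 36 subunits of complexes II to V, 29 had a positive difference and 1 was called, also with a median of 0.10. The called genes were Ndufb10, at 11.21, 11.78 and 11.92 in knockout against 10.69, 10.41 and 10.62 in wild type (1.07 ± 0.19), and Sdhc, a subunit of complex II (0.52 ± 0.11), whose call was lost when 1 array was left out. The mean of the complex I list was 0.08, 0.12 and 0.22 on the knockout arrays, against 0.01, -0.04 and 0.03 on the wild-type arrays. Without the marker-rich arrays its median was 0.04. Without those arrays the median of complexes II to V was 0.08. Of 54 cytosolic ribosomal protein genes, 47 were positive, with a median of 0.11, or 0.04 without the marker-rich arrays, while their 1 called member, Rps15a, fell, at 10.18, 10.44 and 10.26 in knockout against 11.43, 11.16 and 11.37 in wild type (-1.03 ± 0.10, adjusted p = 1.45e-05). In limma 0 of 25 glycolysis, 17 tricarboxylic acid cycle, 32 proteasome, 32 chaperone and 39 lysosome genes were called, with 2, 0, 4, 4 and 1 at an unadjusted p under 0.05. Without knockout array 1, 1 glycolysis gene and 1 proteasome gene passed.

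Immune genes moved both ways. Among 16 Fc receptor and adaptor genes, 2 rose and 2 fell. The share called was 25% of that list, 20% of the complement list and 17.6% of the MHC class I and antigen processing list, against 2.94% of all genes. Fcgr3, an activating receptor for immunoglobulin G that signals through Fcer1g, stood at 9.44, 9.16 and 9.62 in knockout, against 8.21, 7.90 and 8.11 in wild type, and rose by 1.33 ± 0.15 (adjusted p = 4.71e-05). Fcgr2b, the inhibitory receptor, rose by 0.66 ± 0.14, and Trem2, a lipid receptor of microglia, fell by 0.57 ± 0.14, and both lost the call when 1 array was left out. Of 10 complement genes, Masp2 and C4b rose, C4b standing at 8.84, 8.70 and 8.87 in knockout against 7.98, 8.45 and 8.10 in wild type (0.63 ± 0.13). Of 17 MHC class I and antigen processing genes, H2-Bl rose, and H2-M3 (-0.84 ± 0.16) and H2-T23 (-0.77 ± 0.19) fell. C4b, H2-M3 and H2-T23 each lost the call when 1 array was left out. Members of the MHC class I family are near-identical in parts, so that one probe can bind several. Of 25 interferon response genes, 15 had a negative difference, with a median of -0.15. In limma 0 were called at their brightest probe, 10 had an unadjusted p under 0.05, and without knockout array 1 there was 1 call.

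Of 37 proteoglycan and glycosaminoglycan genes, 3 fell and 0 rose (8.11%, against 2.94% of all genes called). The list as a whole did not shift, with 19 positive differences and a median of 0.0006, and it was drawn up with earlier results known. Besides B3galt6 and Uap1, Extl2, a transferase that acts on the linker of heparan sulphate, stood at 11.89, 12.03 and 11.91 in knockout, against 12.53, 12.52 and 12.53 in wild type, and fell by 0.58 ± 0.07 (adjusted p = 2.05e-04). Of 20 glycogen genes, Stbd1 rose and no other was called. In the insulin, mTOR and AMPK group, Pik3ca, the catalytic subunit of PI 3-kinase, was the 1 of 32 called at its brightest probe. Pik3ca fell by 0.66 ± 0.11, and its differences in hippocampus and hypothalamus were -0.01 and 0.02.

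Of 19 circadian clock genes, 2 fell and 0 rose (10.5%, against 2.94% of all genes called). Per3, a period repressor, stood at 5.51, 5.84 and 5.65 in knockout, against 7.20, 6.84 and 7.07 in wild type, and was at least 1.84-fold lower, below detection on all 3 knockout arrays. The other was Rorb. Immediate early genes, which mark recent neuronal activity, had 0 of 25 called in limma, 7 at an unadjusted p under 0.05, and a median of -0.12, or 0.17 without the marker-rich arrays. Arc, a regulator of synaptic strength, stood at 10.30, 11.53 and 9.63 in knockout, against 11.22, 11.40 and 11.44 in wild type, so that knockout array 2 lay above wild type and arrays 1 and 3 below (adjusted p = 0.172). Glucocorticoid-responsive genes had 0 of 22 called in limma, with 2 at an unadjusted p under 0.05. Taste receptor and taste signalling genes had 8 of 22 measured, of which Gnb1, a G protein beta subunit used far beyond taste cells, rose by 0.70 ± 0.15, with the call lost when 1 array was left out.

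Of genes at the highest levels, Hmgn2, a nucleosome-binding protein, stood at 13.75, 13.57 and 13.73 in knockout, against 12.94 to 13.01 in wild type, and rose by 0.70 ± 0.07 (adjusted p = 2.07e-05). Cap1, an actin regulator, stood at 11.98, 12.06 and 12.26 in knockout, against 10.85, 10.94 and 10.92 in wild type, and rose by 1.20 ± 0.09. It was the 1 of 38 cytoskeleton genes called at its brightest probe. The genotypes lay far apart for Hmgn2 and Cap1, and both genes stayed called in each fit without 1 array. Lrrc57, a leucine-rich repeat protein, stood at 9.95, 10.07 and 10.06 in knockout, against 11.13, 11.10 and 11.17 in wild type, and fell by 1.10 ± 0.08. Mfn2, which fuses mitochondria, fell by 0.33 ± 0.08, and Sh3gl2, the endocytic protein endophilin A1, fell by 0.25 ± 0.06 at 1 of 3 probes, just past the threshold (adjusted p = 0.0498). Tfrc, the transferrin receptor, fell at both probes, by 0.77 ± 0.11 and 0.72 ± 0.11. Where genes with a call had several tested probes (137 genes), 178 of the 207 other probes had the same sign, 26 were called in the same direction and 1 in the opposite one. That was Snapc3, a subunit of a small nuclear RNA transcription complex, with 0.61 ± 0.13 at one probe and -0.84 ± 0.18 at another. Mfn2, Sh3gl2 and both Snapc3 probes lost the call when 1 array was left out.

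In limma 0 of 18 striatum, 15 hypothalamus, 14 meninges and 6 choroid plexus genes were called, with and without knockout array 1, taking the brightest probe of each gene. A dimmer probe of the hypothalamic marker Nnat was called (1.38 ± 0.30, adjusted p = 0.0185), and Ecel1, a neuronal peptidase, was called higher without the marker-rich arrays (adjusted p = 0.0267). At an unadjusted p under 0.05 there were 2, 7, 1 and 0, and 17, 13, 13 and 5 had a positive difference. Without the 3 marker-rich arrays the striatum median was -0.18, against 0.41 with them. Those arrays were picked by these markers, so the drop follows from that choice and is no independent result. Dcn, a proteoglycan of meningeal fibroblasts, stood at 11.34, 11.38 and 11.34 in knockout, against 10.38, 11.11 and 10.46 in wild type (adjusted p = 0.204). Ttr, the choroid plexus transthyretin, stood at 9.35, 10.61 and 10.72 in knockout, against 10.50, 8.61 and 9.61 in wild type, with the genotypes overlapping. Of 21 astrocyte markers 0 were called in limma, with 4 at an unadjusted p under 0.05, and Gfap, the astrocyte filament protein, stood at 8.61, 8.95 and 8.69 in knockout, against 8.30, 8.48 and 8.02 in wild type (adjusted p = 0.0754). Of 16 endothelial and pericyte markers Rgs5 was called, and of 15 hippocampus markers Fibcd1, an acetyl-binding membrane receptor, with 0.61 ± 0.12. Of 11 thalamus, 8 ependyma and 4 red cell markers 0 were called in limma, with 4, 1 and 2 at an unadjusted p under 0.05.

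**Figure D5:**
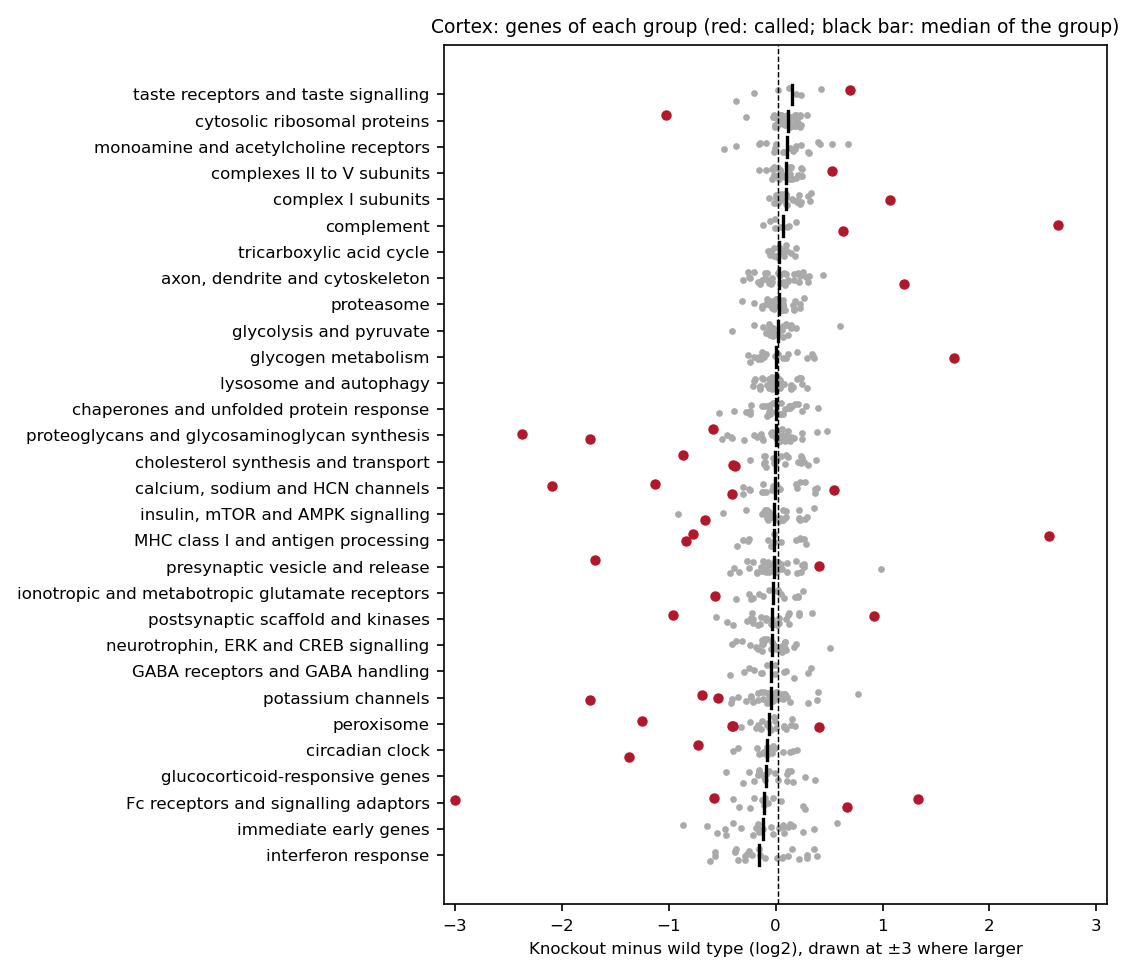
Difference between knockout and wild-type cortex (log2) for each measured gene of 30 gene groups, ordered by the median of the group (black bar); red points are called genes and the dashed line is the median of all genes, 0.02. Group medians lie between -0.15 for interferon response genes and 0.15 for taste receptor and taste signalling genes, while called genes such as Masp2 lie far outside. Fcer1g, beyond the axis, is drawn at -3.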

How the data were processed

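RNA from dissected cortex was measured on Illumina bead arrays, 1 array for each animal, and read with GenomeStudio 2011.1, per the submitters' processing notes. The authors deposited linear bead intensity values that are not normalized between arrays, each followed by a detection p-value. The authors' processed score, deposited for each probe, is a z score of log signal within each array, recomputed here to within 5e-10. Slides and scan dates are unknown here, so no batch could be compared.

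Here the intensity values went through neqc, which corrects background by detection p-value, quantile-normalizes and takes log2 (limma 3.58.1, R 4.3.3, offset 16), over all 18 arrays. Probes detected at p under 0.05 on 3 or more of the 6 cortex arrays were tested. A single limma model of 6 group means was fitted, with 12 residual degrees of freedom. Its contrasts were knockout minus wild type in cortex, and that difference minus the mean of the differences in hippocampus and hypothalamus. P-values are moderated (eBayes) and Benjamini-Hochberg adjusted across all tested probes, called under 0.05. Differences are given ± SE. The fit was tested on simulated data. The number of arrays limits the precision.

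Probe names come from the platform annotation, updated through RefSeq's GRCm38.p6: 23978 of 25697 probes have 1 symbol, 0 several and 1719 none, and 13034 of 13040 named tested probes were found in RefSeq. No build is given for the arrays, so that table served for names, chromosomes, gene order and promoter sequences. The study's text gives 1 animal for each array, so a number marks no shared animal. Deviations of same-numbered knockout and wild-type cortex arrays correlated at -0.07, -0.29 and 0.06, which cannot show whether a number marks a batch. Between hippocampus and hypothalamus, arrays of numbers 1, 2 and 3 correlated at 0.23, 0.28 and 0.40 in knockout and 0.18, 0.06 and 0.21 in wild type.

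The genes named are Tas1r3 and its partners, the 15 largest rises and falls without overlap between genotypes, those of smallest p with only the cortex arrays, those most stable to leaving out an array, the leading genes of the test between regions, up to 5 called members of each list (or 2 as values), the 3 brightest markers of each cell type, genes with several called probes and the brightest called genes. Other members are given as values only, and Srebf2, Hmgcs1 and Sqle, and the motifs searched, were chosen after the values were seen. The members and lists were chosen with earlier results of these data known. Python 3.11.15 and matplotlib 3.10.9 made the figures.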

Additional observations from a re-analysis of the deposited data

Results flagged for a closer look

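Padi6 was the 1 probe past the threshold when the knockout effect in cortex was set against the mean effect in the other regions, with a fitted value of -1.58 on the log2 scale in limma. It was detected on the 3 wild-type cortex arrays and on 0 of the other 15 arrays of the series, so the value sets background against background outside cortex and is no measured difference in effect. In cortex it was below wild type on 3 of 3 knockout arrays.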

How the results depend on the processing

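A fit of the 6 cortex arrays alone called 62 probes (30 higher, 32 lower), and 65 (31 and 34) when only those were also normalized. Leaving out 1 cortex array gave 163 to 681 calls, 69 to 315 higher and 94 to 430 lower. Without the 3 marker-rich arrays 99 were called higher. That fit leaves 1 knockout array, which is assumed to vary like the other groups. The replicate block gave 532 calls over the 18 arrays and 21 (12 higher, 9 lower) with only the cortex arrays. What the numbers mark is not known, so these counts are given as values only. Other settings (background correction, median scaling, offset, filters, z scores, array weights, random block) gave 335 to 498 calls. The test of cortex against other regions gave 2 probes with no filter on dim probes and with detection on 3 of 18 arrays, 0 in limma with detection on all 6, a filter that removes Padi6, 53 with array weights, 117 without the marker-rich arrays, and 1 to 183 when 1 array was left out. Array weights were 0.367 and 0.414 for knockout arrays 1 and 3, against 0.910 for array 2. Of 91 called probes named, 0 changed sign under the alternatives in which they were tested, 65 of them with detection on all 6 arrays and 91 in the others. Leaving out arrays cannot change the sign where the genotypes do not overlap. Leaving out an array lost 12 to 40 of them: 12, 12 and 35 for knockout arrays 1, 2 and 3, and 38, 18 and 40 for wild-type arrays 1, 2 and 3. With 3 arrays for each genotype, a difference that did not pass is not shown to be absent. The cause of the changes in the counts was not tested.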
